A study of Mus musculus with 10 samples.

Results

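The double-stranded RNA (dsRNA) sensors and adaptors were followed in 10 subcutaneous CT26 tumors, a mouse colorectal carcinoma line grown in wild-type female BALB/c mice. The 10 genes, Tlr3, Ifih1, Ddx58, Dhx58, Mavs, Ticam1, Eif2ak2, Adar, Trim25 and Tbk1, were taken by gene name from the 36009 genes of the deposited table, and all 10 were found and passed the filter on low counts. All 10 tumors were resected in part, the resected piece was sequenced as polyA RNA, and a hydrogel loaded with poly(I:C), a synthetic dsRNA, was then placed on the tumor that was left. The 6 responders (RS) later regressed completely and the 4 non-responders (NR) grew without delay, so every library was untreated when it was taken and both groups received the same hydrogel afterwards. Tumors were numbered in accession order within a group, and the age of each mouse was not given in the labels. All tumors came from 1 cell line, and no tumor left without hydrogel was part of the comparison.

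Depth was 29065126 to 38042544 estimated counts in responders and 23374649 to 32986456 in non-responders, and each member had between 469 and 7331 counts in a tumor. Counting error was thus small beside the spread between tumors for the members that varied most, such as Tlr3. It was less so for members that varied little, such as Ticam1. Several defining markers of the labelled colorectal carcinoma were nearly absent, since Epcam, Krt8, Krt18, Krt19 and Vil1 were below 1 CPM in every tumor, while Krt20 was at 12.7 to 75.3 CPM. CPM is edgeR's depth-scaled count of a gene, its estimated count brought to one fixed library size after TMM scaling of the library totals. A bulk library cannot tell a change in the number of cells of a type from a change in the RNA of each cell.

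Long dsRNA is a sign of viral infection, and cells hold separate sensors for it in endosomes and in the cytosol. TLR3 (Tlr3) reads dsRNA taken up into endosomes and signals through TRIF (Ticam1), while the cytosolic helicases RIG-I (Ddx58) and MDA5 (Ifih1) signal through MAVS (Mavs) on mitochondria, with LGP2 (Dhx58) as a related helicase that lacks the signaling domain and tunes the others. Both routes meet at the kinase TBK1 (Tbk1), which drives type I interferon (IFN), and TRIM25 (Trim25) is a ubiquitin ligase known for its part in RIG-I activation. PKR (Eif2ak2) stops translation once it binds dsRNA, and ADAR1 (Adar) edits adenosine to inosine in dsRNA, which keeps the cell's own RNA from being sensed. Several of these genes are themselves induced by IFN.

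The upstream sequences are shown for the genes at the opposite ends of the comparison, Tlr3, whose estimate was the highest of the members in responders, and Mavs, the member that fell. The interferon-stimulated response element (ISRE) was searched as GAAANNGAAA and the gamma-activated site (GAS) as TTCNNNGAA, on both strands, in windows of 300 bases, 250 before and 50 after each RefSeq start on GRCm38.p6. Windows were listed for 9 of the members, and Dhx58 was not among them. The ISRE letters were present for Ifih1, Ddx58 and Eif2ak2, 3 of 9 members, against 3.99% of the 27025 genes listed. The GAS letters were present for Eif2ak2 and for 1 of the 3 starts of Adar, against 9.55% of genes. The bases checked just after that Adar start were not found in an annotated Adar transcript. The same held for the start of Tbk1, whose window had no match. Each ISRE match lay just after the listed start, and it is printed in capitals with its flanks, 5′ to 3′ on the gene's strand:

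Ifih1, chr2:62646206-62646233, minus strand: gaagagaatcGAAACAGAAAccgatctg

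Ddx58, chr4:40239804-40239833, minus strand, motif on the opposite strand: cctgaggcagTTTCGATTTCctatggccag

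Eif2ak2, chr17:78882535-78882564, minus strand: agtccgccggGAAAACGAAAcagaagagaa

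The 250 bases before the starts of Tlr3 and Mavs held neither motif as spelled here, so no letters are in capitals:

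Tlr3, chr8:45410381-45410630, minus strand: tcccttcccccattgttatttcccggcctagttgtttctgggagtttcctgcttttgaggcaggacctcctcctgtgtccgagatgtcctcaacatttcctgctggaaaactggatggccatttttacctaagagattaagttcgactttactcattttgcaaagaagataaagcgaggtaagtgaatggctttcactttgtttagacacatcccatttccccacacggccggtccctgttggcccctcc

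Mavs, chr2:131233813-131234062, plus strand: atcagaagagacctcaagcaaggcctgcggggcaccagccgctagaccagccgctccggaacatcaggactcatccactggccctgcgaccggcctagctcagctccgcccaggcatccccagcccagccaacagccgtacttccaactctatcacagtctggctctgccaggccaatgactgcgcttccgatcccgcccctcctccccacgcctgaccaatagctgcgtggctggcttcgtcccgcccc

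A match to these letters describes the sequence and does not show binding, and the absence of the letters says nothing about other sites.

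The comparison of responders with non-responders asked which features of the tumor before treatment differed with the later response. Of the 10 members, Mavs was lower in responders and was the only one to pass in the edgeR test over all genes. Estimates of the 4 sensors were 1.201 to 1.505 times as high in responders and none passed, and non-responder 2 lay at or near the responder level for each of them. Ticam1, the adaptor of TLR3, differed by less than the spread between tumors. By the edgeR quasi-likelihood test 0 of 10 members were called higher, against 4.71% of the 16041 genes tested, and 1 of 10 was called lower, against 3.35%. At an unadjusted p under 0.05, 3 members were higher (Tlr3, Ifih1 and Dhx58), against 15.6% of genes, and 1 was lower (Mavs), against 13.5%. The same 3 genes were called higher by DESeq2, which called 1534 of all genes higher. By limma voom 0 members were called higher, against 630 of all genes. The groups did not overlap for 1 member, again Mavs, against 4.55% of genes that were lower in every responder, and for 0 members in the other direction, against 5.84%. The median log2 fold change was 0.23 over the members and -0.01 over all genes tested.

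**Figure D1:**
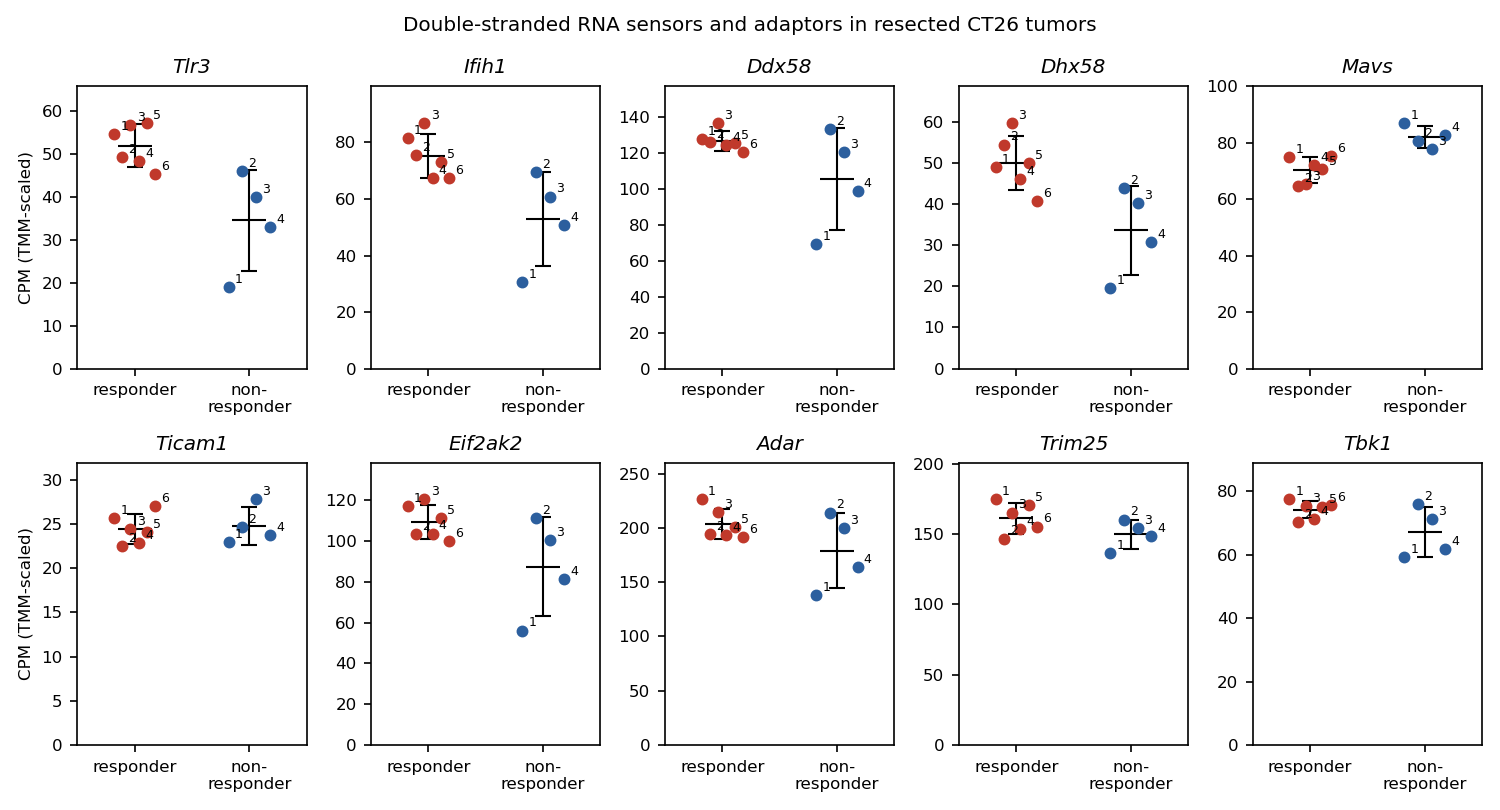
CPM of each member (y axis, from 0, TMM-scaled) in 6 responders (red) and 4 non-responders (blue), with the tumor number beside each point and the mean ± SD as a bar. Non-responder 1 is the lowest point for 8 of 10 members, and the Mavs panel is the only one in which the groups do not overlap.

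TLR3 is the endosomal receptor for poly(I:C), and Tlr3 (ENSMUSG00000031639, chromosome 8, 45395665 to 45411080, minus strand) ranged from 45.3 to 57.3 CPM in responders with a median of 52.1 CPM. In non-responders 1 to 4 it was at 18.9, 46.1, 40.1 and 33.0 CPM. Responder 6 lay just under non-responder 2, and the other 5 responders were above the whole group. Responders exceeded non-responders by 0.59 on the log2 scale (SE 0.19, 95% interval 0.17 to 1.008, edgeR adjusted p = 0.0726), or 52.0 ± 4.96 CPM (SD, n = 6) against 34.5 ± 11.7 CPM (SD, n = 4). Without non-responder 1 the difference was 0.39 (edgeR adjusted p = 0.0878). Without non-responder 2 it was 0.76 and passed (edgeR adjusted p = 0.0333), in a fit that called 1897 of all genes against 1293 with all tumors. Tlr3 passed in no other fit that left out a tumor, and the largest edgeR adjusted p was 0.152, without non-responder 4.

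MDA5 binds long dsRNA in the cytosol and is the main cytosolic sensor of poly(I:C). Ifih1 (ENSMUSG00000026896, chromosome 2, 62595798 to 62646255, minus strand) ranged from 67.3 to 86.95 CPM in responders with a median of 74.3 CPM. In non-responders 1 to 4 it was at 30.5, 69.4, 60.9 and 50.8 CPM, so non-responder 2 lay above the lowest responders and below the other 4. The fitted difference was 0.51 on the log2 scale (SE 0.18, 95% interval 0.11 to 0.90, edgeR adjusted p = 0.0925). It was 0.32 without non-responder 1 (edgeR adjusted p = 0.121) and 0.67 without non-responder 2 (edgeR adjusted p = 0.0406). Only the latter passed among the fits that left out a tumor, and the largest edgeR adjusted p was 0.18, without non-responder 4.

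LGP2 is the helicase without a signaling domain, and its non-responders fell in the same order as for every other member except Mavs and Ticam1. Dhx58 (ENSMUSG00000017830, chromosome 11, 100694884 to 100704271, minus strand) ranged from 40.7 to 59.9 CPM in responders with a median of 49.5 CPM, and was at 19.6, 43.9, 40.3 and 30.7 CPM in non-responders 1 to 4. Responder 6 was the only responder below non-responder 2. The difference on the log2 scale came to 0.57 (SE 0.19, 95% interval 0.16 to 0.99, edgeR adjusted p = 0.0781). It was 0.39 without non-responder 1 (edgeR adjusted p = 0.125) and 0.73 without non-responder 2 (edgeR adjusted p = 0.0392). Again only the latter passed among the fits that left out a tumor, and the largest edgeR adjusted p was 0.167, without non-responder 4.

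RIG-I reads short dsRNA with a 5′ triphosphate and separated the groups least among the sensors. Ddx58 (ENSMUSG00000040296, chromosome 4, 40203773 to 40239828, minus strand) lay within 120.6 to 137.0 CPM in responders, with a median of 125.8 CPM. In non-responders 1 to 4 it was at 69.2, 133.7, 120.9 and 98.9 CPM, and only 1 of 6 responders exceeded non-responder 2. It differed by 0.26 on the log2 scale (SE 0.14, 95% interval -0.05 to 0.57, edgeR adjusted p = 0.239), and 0.11 without non-responder 1 (edgeR adjusted p = 0.441). Without non-responder 2 it was 0.40 (edgeR adjusted p = 0.0748).

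MAVS carries the signal of both cytosolic sensors, and Mavs (ENSMUSG00000037523, chromosome 2, 131234063 to 131248025, plus strand) ran the other way. It ranged from 64.6 to 75.4 CPM in responders with a median of 71.4 CPM, and was at 87.1, 80.7, 77.7 and 82.6 CPM in non-responders 1 to 4. Every responder lay below every non-responder, and the tumor with the lowest sensors, non-responder 1, had the highest Mavs. The difference was small, 70.5 ± 4.60 CPM (SD, n = 6) against 82.0 ± 3.93 CPM (SD, n = 4), or -0.22 on the log2 scale (SE 0.05, 95% interval -0.34 to -0.10, edgeR adjusted p = 0.0391). The call was lost when responder 2, responder 3, responder 5, non-responder 1, non-responder 3 or non-responder 4 was left out, and without the filter on low counts, with edgeR adjusted p of 0.0549 to 0.114 over these fits. The log2 fold change stayed between -0.24 and -0.18 over all alternatives run.

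TRIF is the only adaptor of TLR3, and its gene Ticam1 (ENSMUSG00000047123, chromosome 17, 56269319 to 56276786, minus strand) ranged from 22.5 to 27.0 CPM in responders with a median of 24.3 CPM. Non-responders 1 to 4 were at 22.9, 24.6, 27.8 and 23.7 CPM, within or next to the range of the responders. The groups differed by -0.02 on the log2 scale (SE 0.07, edgeR adjusted p = 0.881), and its 95% interval of -0.17 to 0.13 does not reach the size of the estimates for Tlr3, Ifih1 or Dhx58. Its sign was the only one among the members to turn when single tumors were left out.

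The dsRNA-binding effectors had higher estimates in responders that did not pass. Eif2ak2 (ENSMUSG00000024079, chromosome 17, 78852564 to 78882573, minus strand), which encodes PKR, ranged from 99.9 to 120.5 CPM in responders with a median of 107.6 CPM, and was at 56.1, 111.5, 100.5 and 81.5 CPM in non-responders 1 to 4. The fitted difference was 0.32 (log2; SE 0.15, 95% interval -0.01 to 0.66, edgeR adjusted p = 0.183), and 0.17 without non-responder 1 (edgeR adjusted p = 0.327) or 0.46 without non-responder 2 (edgeR adjusted p = 0.0629). Adar (ENSMUSG00000027951, chromosome 3, 89715022 to 89753446, plus strand), which encodes the editing enzyme ADAR1, ranged from 191.3 to 226.3 CPM in responders with a median of 197.4 CPM. It was at 137.8, 214.1, 199.7 and 164.2 CPM in non-responders 1 to 4, so that non-responders 2 and 3 lay within the responder range. For Adar the fitted log2 difference was 0.18 (SE 0.11, 95% interval -0.05 to 0.42, edgeR adjusted p = 0.283), and 0.08 without non-responder 1 (edgeR adjusted p = 0.600) or 0.28 without non-responder 2 (edgeR adjusted p = 0.0925). The table sums transcripts to genes, so the IFN-induced and the constitutive forms of Adar could not be told apart.

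The ubiquitin ligase and the kinase had the smallest positive estimates. Trim25 (ENSMUSG00000000275, chromosome 11, 88999376 to 89020293, plus strand) ranged from 146.7 to 174.6 CPM in responders with a median of 160.3 CPM, and was at 136.4, 160.2, 154.0 and 148.5 CPM in non-responders 1 to 4 (log2 fold change 0.10, SE 0.06, 95% interval -0.03 to 0.24, edgeR adjusted p = 0.282). Tbk1 (ENSMUSG00000020115, chromosome 10, 121546455 to 121586787, minus strand) ranged from 70.3 to 77.5 CPM in responders with a median of 75.2 CPM, and was at 59.2, 75.9, 71.4 and 61.7 CPM in non-responders 1 to 4. Responders were above by 0.15 on the log2 scale (SE 0.07, 95% interval -0.000293 to 0.29, edgeR adjusted p = 0.173), and without non-responder 2 it was 0.21 and passed (edgeR adjusted p = 0.0471). Without non-responder 1 or non-responder 4 it was 0.098 or 0.11 (edgeR adjusted p = 0.388 and 0.363). For both genes the groups overlapped, and non-responder 2 lay at the level of the middle responders or above it.

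**Figure D2:**
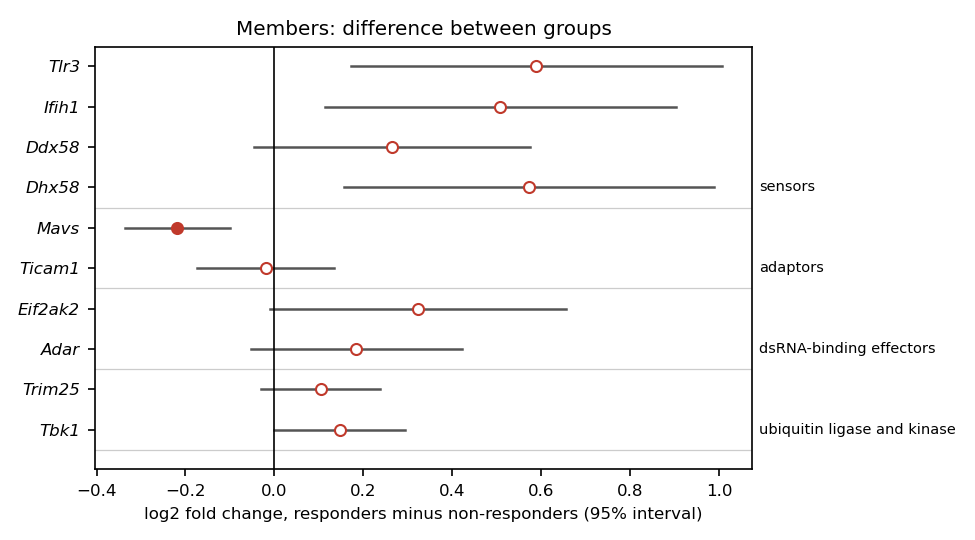
Log2 fold change of each member, responders minus non-responders (x axis), with its 95% interval from the edgeR fit, grouped by role; the filled point passed an adjusted p of 0.05. Mavs, at -0.22, is the only filled point, and the intervals of Tlr3, Ifih1 and Dhx58 lie above 0.

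The members did not vary alike. In non-responders the coefficient of variation of CPM was 26.7% to 33.9% for the 4 sensors and 27.8% for Eif2ak2, against 4.34% to 13.2% and 7.61% in responders. Mavs and Ticam1 varied by 4.79% and 8.59% in non-responders and by 6.52% and 7.01% in responders. From the lowest to the highest tumor Dhx58, Tlr3 and Ifih1 spanned 3.05-fold, 3.03-fold and 2.85-fold, and Ticam1, Trim25, Tbk1 and Mavs 1.24-fold to 1.35-fold.

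The lowest tumors were shared by most members, with Mavs and Ticam1 as exceptions. For 8 members non-responder 1 held the lowest value and for Mavs the highest, and its Tlr3 was 0.364 times the responder mean and its Ddx58 0.545 times. Non-responder 4 ranked second from the bottom for the 4 sensors, Eif2ak2, Adar and Tbk1. Non-responder 2 differed from the rest of its group, with a median rank of 7.5 over the members (10 being the highest tumor), against 1, 4.5 and 2 for non-responders 1, 3 and 4 and 4 to 9 for responders. Responder 3 was the highest tumor for Ifih1, Ddx58, Dhx58 and Eif2ak2, and responder 1 for Adar, Trim25 and Tbk1.

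**Figure D3:**
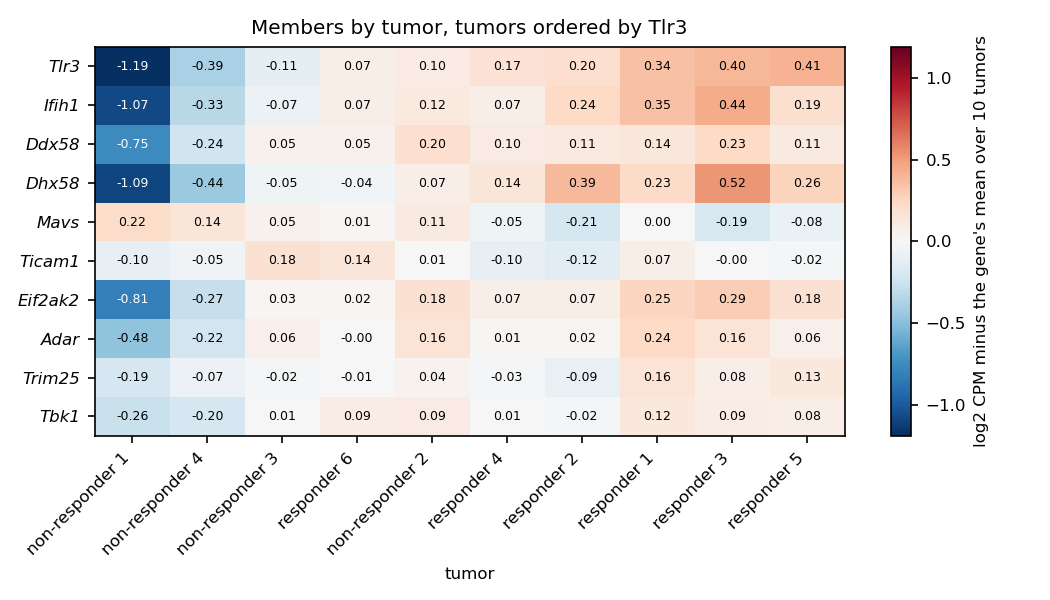
Log2 CPM of each member minus its mean over the 10 tumors (color and printed value), with tumors on the x axis ordered by Tlr3 from low to high. The sensors, Eif2ak2 and Adar run from blue at non-responder 1 to red, while the Mavs row runs the other way and the Ticam1 row follows neither.

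The likeness of the members was described by the Pearson correlation of log2 CPM with Tlr3 over the 10 tumors, which share libraries and hold the group difference within them. It was 0.985 for Ifih1, 0.972 for Dhx58, 0.961 for Ddx58, 0.979 for Eif2ak2 and 0.925 for Adar, with Spearman's rho of 0.915, 0.939, 0.782, 0.842 and 0.758. Trim25 and Tbk1 were at 0.826 and 0.893 (rho 0.709 and 0.515), Mavs at -0.775 (rho -0.855) and Ticam1 at 0.206 (rho -0.04). These values rested in part on non-responders 1 and 4, whose Tlr3 lay farthest from its median. Without them r was 0.862, 0.802, 0.544, 0.788 and 0.433 for Ifih1, Dhx58, Ddx58, Eif2ak2 and Adar and -0.579 for Mavs over 8 tumors, with 0.668 for Trim25, 0.442 for Tbk1 and -0.495 for Ticam1. Within the 6 responders alone it was 0.747, 0.687, 0.721, 0.903 and 0.711, with 0.775 for Trim25, 0.403 for Tbk1, -0.299 for Mavs and -0.113 for Ticam1.

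Outside the members, the 5 genes most like Tlr3 by the same measure, among 13723 genes with an average of at least 1 CPM, were Nmi, Ifi44, Idnk, Oasl2 and Trafd1 (r of 0.998, 0.997, 0.995, 0.994 and 0.993 over 10 tumors). Nmi, Ifi44 and Oasl2 are known IFN-induced genes. None passed between the groups by edgeR, with log2 fold changes of 0.46, 0.81, 0.47, 0.70 and 0.54 and adjusted p of 0.0863, 0.0640, 0.0819, 0.116 and 0.0658. DESeq2 called Nmi, Ifi44, Idnk and Trafd1. The 5 genes most like Mavs were Akap1, Gnl3, Pdrg1, Drg2 and Eri2 (r of 0.970, 0.964, 0.964, 0.955 and 0.954). All 5 had lower estimates in responders, by -0.21, -0.12, -0.20, -0.14 and -0.21 on the log2 scale, and Akap1, Pdrg1 and Eri2 passed (edgeR adjusted p = 0.0432, 0.0484 and 0.0472), with calls that held in 2, 1 and 1 of 10 fits that left out a tumor. Akap1 encodes an anchoring protein of the outer mitochondrial membrane, the membrane that also holds MAVS. The search picks the highest of many values, so these correlations are a description and not a test.

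Levels were compared between members only per length, as CPM per kb of annotated exon, averaged over the 10 tumors. Trim25 was the highest at 27.2 ± 2.01 CPM per kb (SD, n = 10), followed by Adar at 23.9 ± 3.18, Mavs at 22.5 ± 2.16, Eif2ak2 at 19.7 ± 3.73, Tbk1 at 18.3 ± 1.59 and Ddx58 at 16.8 ± 2.85. Dhx58 was at 13.3 ± 3.56, and Tlr3, Ticam1 and Ifih1 were the lowest at 8.64 ± 2.28, 8.21 ± 0.595 and 8.12 ± 1.98. Mavs and Eif2ak2 traded places between tumors (Mavs higher in 6 of 10), as did Tlr3 and Ticam1 (6 of 10) and Ticam1 and Ifih1 (4 of 10), so these neighbors were not separated. Trim25 lay above Adar, Ddx58 above Dhx58 and Dhx58 above Tlr3 in 10 of 10 tumors. Tlr3 and its adaptor Ticam1 were at the 63.0 and 61.6 percentile of genes tested over all tumors. In responders Tlr3 was at 9.985 ± 0.952 and Ticam1 at 8.16 ± 0.572 CPM per kb (SD, n = 6), and in non-responders Tlr3 was at 6.63 ± 2.25 and Ticam1 at 8.28 ± 0.711 CPM per kb (SD, n = 4). The order depended on the length used. With the length of the longest transcript Adar, at 32.8, and Ddx58, at 30.6, came ahead of Trim25.

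Markers of some cell types also differed between the groups, and those of others did not. The summed CPM of 3 leukocyte markers (Ptprc, Itgb2 and Coro1a) was 638.5 to 954.6 in responders and 339.0, 584.6, 541.8 and 456.1 in non-responders 1 to 4, so the groups did not overlap. All 3 of these genes passed as higher in responders. The macrophage list was at 2255 to 3403 against 1681 to 2203 CPM, with 4 of 6 genes higher by edgeR and 5 at an unadjusted p under 0.05. The dendritic cell list was at 31.5 to 39.3 against 26.4 to 33.1 CPM, with 1 of 4 higher by edgeR and 2 at an unadjusted p under 0.05. T cell markers were at 112.4 to 268.8 against 68.96 to 128.3 CPM (1 of 6 higher by edgeR, 5 of 6 at an unadjusted p under 0.05). NK cell markers were at 11.6 to 31.5 against 5.53 to 14.1 CPM (0 of 3 called by edgeR, 3 of 3 at an unadjusted p under 0.05). Skeletal muscle markers were at 362.3 to 1176 against 321.6 to 418.6 CPM (2 of 6 higher by edgeR, 6 at an unadjusted p under 0.05). Adipocyte markers were at 17.4 to 73.4 against 8.54 to 23.7 CPM (0 of 4 tested called by edgeR, 4 at an unadjusted p under 0.05). Fibroblast markers were at 3587 to 4147 against 3146 to 4533 CPM (0 of 6 higher and 1 lower) and endothelial markers at 86.1 to 141.7 against 68.8 to 104.2 CPM (0 of 5 called, 0 at an unadjusted p under 0.05). The epithelial list ran the other way, at 17.5 to 42.1 CPM in responders and 40.3 to 84.8 CPM in non-responders (0 of 4 tested called by edgeR, 3 lower at an unadjusted p under 0.05). Most of this sum was Krt20, with a mean of 29.05 CPM in responders and 52.94 CPM in non-responders, so it is mainly a value of 1 gene.

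The order of tumors by leukocyte markers was close to that by Tlr3, with a Pearson correlation of 0.945 and rho of 0.952 over 10 tumors, 0.961 without responder 5 and non-responder 1, and 0.767 within the 6 responders. For Ifih1 and Dhx58 it was 0.894 and 0.906 over 10 tumors and 0.284 and 0.356 within responders, and for Mavs -0.801 and -0.184. For Ddx58, Eif2ak2 and Adar it was 0.839, 0.877 and 0.807 over 10 tumors and 0.192, 0.444 and 0.242 within responders. Responder 5 held the most leukocyte marker RNA and the most Tlr3, while Ddx58, Ifih1, Dhx58 and Eif2ak2 peaked in responder 3. Non-responder 2 had a lower leukocyte marker sum than any responder. Of the 6 responders, 5, 4 and 5 had more Tlr3, Ifih1 and Dhx58 than non-responder 2. For Ddx58, Eif2ak2, Adar, Trim25 and Tbk1, 1, 2, 2, 3 and 1 of the 6 responders lay above it. The part of these cells in the differences between groups was not tested.

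**Figure D4:**
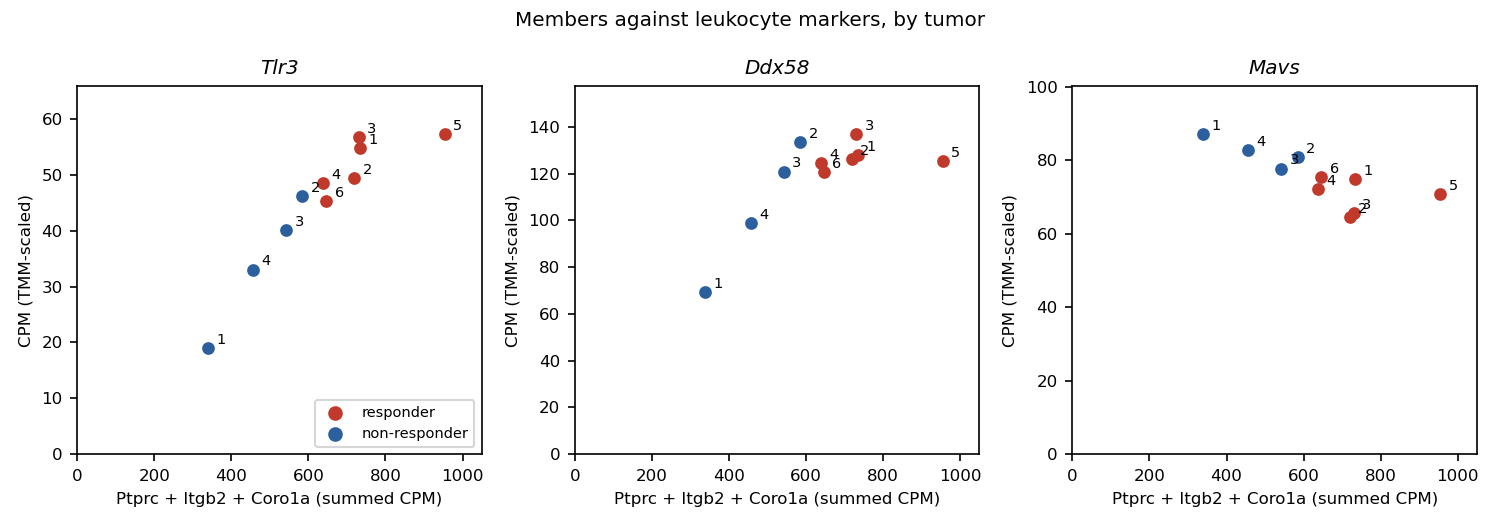
CPM of Tlr3, Ddx58 and Mavs (y axes, from 0) against the summed CPM of Ptprc, Itgb2 and Coro1a (x axis), 1 point per tumor with its number, responders in red and non-responders in blue. Tlr3 climbs along the axis from 18.9 CPM in non-responder 1 to 57.3 CPM in responder 5, Ddx58 lies within 120.6 to 137.0 CPM in responders, and Mavs runs from 87.1 CPM in non-responder 1 to 70.7 CPM in responder 5.

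The other genes of the pathway were read from the same fit, as a list of 44 genes of which 43 could be tested. By edgeR 3 of 43 were called higher in responders (Unc93b1, Cyld and Ikbke) and 0 lower, against 4.71% and 3.35% of all genes tested, so the count was near the background. At an unadjusted p under 0.05, 13 were higher and 1 lower, against 15.6% and 13.5% of all genes. DESeq2 called 7 higher and 0 lower, and over all genes it called 1534 higher and 1039 lower. Groups did not overlap for 5 genes, all higher, namely these 3 together with Zcchc3 and Ripk3, against 5.84% of all genes higher and 4.55% lower. The median log2 fold change was 0.09.

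Of 4 genes of TLR3 trafficking and uptake, 1 was called. Unc93b1 (ENSMUSG00000036908), the chaperone that carries TLR3 and other nucleic acid receptors to endosomes, ranged from 228.9 to 344.5 CPM in responders with a median of 259.4 CPM. In non-responders 1 to 4 it was at 110.0, 172.5, 157.1 and 154.4 CPM, so that every responder lay above every non-responder, non-responder 2 included. On the log2 scale the difference of 0.86 (SE 0.14, edgeR adjusted p = 0.0207) was the largest of the called genes in this list, and it stayed at 0.75 without non-responder 1 (edgeR adjusted p = 0.0529). The call was also lost without responder 3 (edgeR adjusted p = 0.0566) or non-responder 4 (edgeR adjusted p = 0.0584). For the chaperones Cnpy3 and Hsp90b1 and the uptake receptor Cd14 the log2 fold changes were 0.14, -0.04 and 0.07 (edgeR adjusted p = 0.102, 0.603 and 0.670).

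Of 15 kinases, TRAFs and transcription factors, 1 was called. Ikbke, the IFN-inducible kinase related to Tbk1, ranged from 50.4 to 76.2 CPM in responders with a median of 61.6 CPM, against 36.7, 47.9, 48.95 and 39.8 CPM in non-responders 1 to 4. Its groups did not overlap and differed by 0.50 on the log2 scale (SE 0.12, edgeR adjusted p = 0.0341), and the call held in 3 of 10 fits that left out a tumor. Irf7, the IFN-inducible factor of this branch, was at 165.5 ± 25.2 CPM (SD, n = 6) against 111.6 ± 31.7 CPM (SD, n = 4) and did not pass (log2 fold change 0.57, edgeR adjusted p = 0.0693). Ripk1 did not pass either (0.19, edgeR adjusted p = 0.118). Irf3, the constitutive factor that TBK1 phosphorylates, was at 53.2 ± 3.06 CPM (SD, n = 6) against 51.8 ± 4.18 CPM (SD, n = 4), and Traf3 and Traf6, which link the adaptors to the kinases, had log2 fold changes of -0.04 and 0.03 with 95% intervals within -0.18 and 0.14.

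Of 8 inhibitors, 1 was called. Cyld, a deubiquitinase that restrains RIG-I and NF-kB signaling, lay within 113.4 to 120.9 CPM in responders, with a median of 115.9 CPM, against 87.3, 110.5, 98.8 and 93.6 CPM in non-responders 1 to 4. The groups did not overlap, a difference of 0.26 on the log2 scale (SE 0.06, edgeR adjusted p = 0.0330), and the call held in 4 of 10 fits that left out a tumor. Among 8 cofactors of the cytosolic sensors 0 were called by edgeR, with 2 higher and 1 lower at an unadjusted p under 0.05. Ddx60, an IFN-induced helicase, was at 35.6 ± 5.03 CPM (SD, n = 6) against 22.1 ± 10.1 CPM (SD, n = 4; log2 fold change 0.69, edgeR adjusted p = 0.109). Zcchc3 was low, at 0.633 to 0.963 CPM against 0.434 to 0.597 CPM (log2 fold change 0.54, edgeR adjusted p = 0.0986).

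Of 6 other dsRNA effectors 0 were called by edgeR, with 2 at an unadjusted p under 0.05. Ripk3, the kinase of necroptosis, was at 22.5 to 28.9 CPM in responders and 14.5, 22.3, 20.1 and 20.1 CPM in non-responders 1 to 4 (log2 fold change 0.35, edgeR adjusted p = 0.0742). Zbp1, a sensor of Z-form nucleic acid upstream of Ripk3, was at 172.2 ± 28.3 CPM (SD, n = 6) against 90.1 ± 54.1 CPM (SD, n = 4), with non-responder 1 at 21.7 CPM (log2 fold change 0.94, edgeR adjusted p = 0.133). Among the cytokines that dsRNA induces, Ccl5 was at 19.8 to 44.3 CPM against 8.20 to 21.5 CPM (log2 fold change 0.91, edgeR adjusted p = 0.0695). Cxcl10 was at 88.7 to 222.0 CPM against 48.7 to 146.6 CPM (0.74, edgeR adjusted p = 0.130), and Ifnb1 had 1 to 6 counts in a tumor and was not tested.

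**Figure D5:**
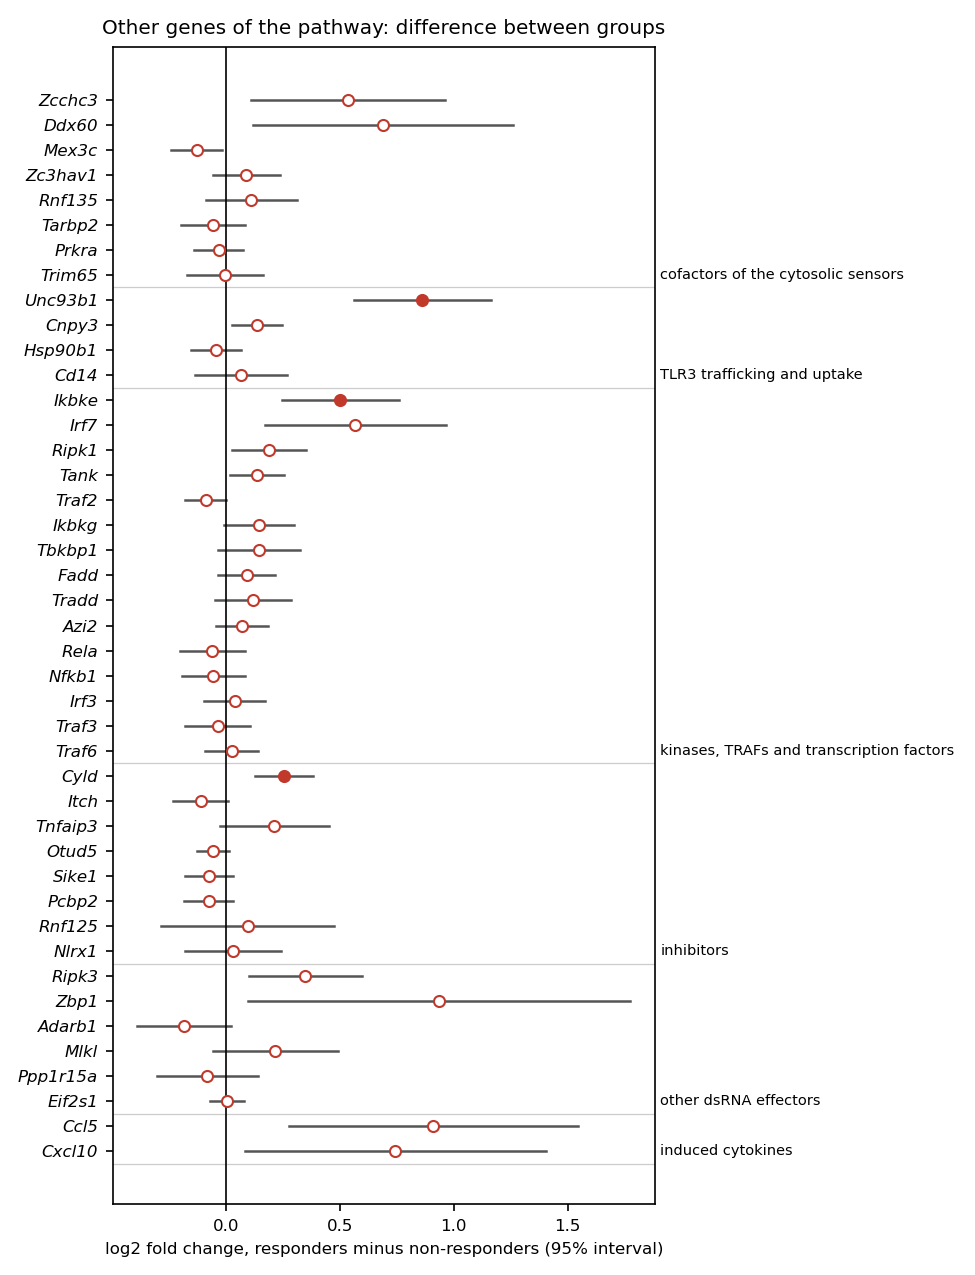
Log2 fold change, responders minus non-responders (x axis), with 95% intervals, of the 43 other pathway genes tested, grouped by role; filled points passed an adjusted p of 0.05. Unc93b1, Ikbke and Cyld are filled, and most of the kinases, TRAFs and inhibitors have intervals that include 0.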

How the data were processed

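PolyA RNA of 10 resected CT26 tumors, each from a separate mouse, was sequenced in pairs of reads. The authors checked the reads with FastQC, quantified transcripts with Kallisto on the mouse build mm10 (GRCm38) and summed them to genes with tximport, and they deposited estimated counts per gene. The annotation release, the tximport scaling and the use of strand were not given in the sources used here. Rows without a gene name (9633) held 1.04% to 1.23% of the counts. They were handled like the other rows, so those that passed the filter on low counts entered the library sizes and the tests.

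Counts were rounded, filtered with filterByExpr (minimum count 10, total 15), scaled by TMM and tested with edgeR's quasi-likelihood test (edgeR 4.0.16, limma 3.58.1, R 4.3.3), two-sided, with Benjamini-Hochberg adjustment over 16041 genes and a threshold of 0.05. Log2 CPM used a prior count of 2. Depth was 23374649 to 38042544 estimated counts per tumor. Scripts were tested on simulated data. Alternatives were RLE and upper-quartile scaling, no filter, DESeq2 1.42.0, limma voom, leaving out each tumor, and the longest transcript for levels per kb. No batch was given, and replicate numbers followed accession order and paired no samples. P-values measure the spread between these tumors.

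The members and lists were chosen with earlier results of these data known. Beyond them, the text names the 10 pathway genes with the smallest p, the 5 genes most like Tlr3 and like Mavs, and further pathway genes as examples chosen after their values were seen. Gene positions came from GENCODE M21 on GRCm38 (35991 identifiers matched, 18 not), and upstream sequences from RefSeq on GRCm38.p6. Adar overlaps Chrnb2, and genes on the opposite strand overlap Tlr3, Dhx58 and Eif2ak2, so reads there could be shared. The genes that overlap Tlr3, Dhx58 and Eif2ak2 were not among the genes with deposited counts.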

Additional observations from a re-analysis of the deposited data

How the results depend on the processing

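The number of calls depended on single tumors and on the tool. Over all genes edgeR called 1293, DESeq2 2573, and the fits that left out 1 tumor 0 (without non-responder 4, with 4106 genes at an unadjusted p under 0.05) to 1897 (without non-responder 2). The count was 17 without responder 3 and 16 without non-responder 1. Of the members edgeR called 1, and 0 with no filter on low counts (6 at an unadjusted p under 0.05). DESeq2 called 4 members, Tlr3, Ifih1 and Dhx58 higher (DESeq2 adjusted p = 0.0177, 0.0330 and 0.0210) and Mavs lower (DESeq2 adjusted p = 0.00697). Leaving out a tumor gave 0 to 5 members, with 5 without non-responder 2 (Tlr3, Ifih1, Dhx58, Tbk1 and Mavs). Of the other pathway genes 3 were called, 7 by DESeq2 and 0 to 6 with a tumor left out. Ticam1 turned sign without responder 2 (0.0032), responder 4 (0.0077) or non-responder 3 (0.039), within a range of -0.051 to 0.039 on the log2 scale. The cause was not tested. RLE and upper-quartile scaling and limma voom left each count within 1.5 times. Levels per kb moved by more than 1 SD with the longest transcript for 5 members (Ifih1, Ddx58, Dhx58, Adar and Tbk1). No paired analysis was possible because the labels give no replicate numbers shared between groups.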

Other observations

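Tumors were also described by each member's CPM per 100 CPM of the 3 leukocyte markers, a ratio chosen after the values were seen and given without a test. For Tlr3 it was 6.002 to 7.77 in responders and 5.59 to 7.89 in non-responders, for Ifih1 7.65 to 11.9 and 8.99 to 11.87, and for Dhx58 5.23 to 8.19 and 5.79 to 7.52, so the groups overlapped for these 3 sensors. For Ddx58 it was 13.1 to 19.5 in responders and 20.4 to 22.9 in non-responders, and for Mavs 7.41 to 11.7 and 13.8 to 25.7, with no overlap. The groups did not overlap for Ticam1 (2.52 to 4.18 and 4.215 to 6.76), Eif2ak2 (11.7 to 16.5 and 16.55 to 19.1), Adar (21.02 to 30.8 and 36.0 to 40.7), Trim25 (17.9 to 24.0 and 27.4 to 40.2) or Tbk1 (7.85 to 11.7 and 13.0 to 17.5) either. Ticam1 was among these although its CPM overlapped between the groups. The ratio holds the marker difference between the groups in its denominator. A gene with the same CPM in every tumor would therefore also be higher by this ratio in every non-responder. The share of all genes without overlap in this ratio was not computed, so the lack of overlap is not a result about the members.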
